A study of Mus musculus with 3 samples.

Results

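The cytochrome P450 (CYP) genes of the mouse were examined in alveolar type II (AT2) cells, the surfactant-producing epithelial cells of the lung alveolus. Members were the GRCm38 RefSeq protein-coding genes whose symbol is Cyp followed by digits, a letter and digits, together with Cyp51 and without 1 CYP2 gene that the rule leaves out. This gave 92 genes of 21887 protein-coding genes. The series holds 3 samples of AT2 cells from C57BL/6 mice aged 10 to 12 weeks, with no genetic change or treatment named for any of them. They are 1 library of chromatin pulled down with an ETV5 antibody, 1 with an H3K4me3 antibody, and 1 input without antibody. ETV5 is a transcription factor of the ETS family. H3K4me3, the trimethylated form of lysine 4 on histone H3, is a mark of active promoters. The labels give neither the number of mice behind a library nor whether animals were pooled, and the analysis used the 2 peak lists, 1 per antibody.

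Cytochrome P450 enzymes are haem proteins that insert an oxygen atom into their substrates, with electrons passed on by the reductase POR in the endoplasmic reticulum or by ferredoxins in mitochondria. Families CYP1 to CYP4 act mainly on drugs, pollutants, arachidonic acid and other fatty acids, while the remaining families make or break down sterols, bile acids, vitamin D, retinoic acid and steroid hormones. Many CYP2, CYP3 and CYP4 genes lie in tandem arrays of near copies and are best known in liver, while lung epithelium is known for P450s that activate inhaled compounds.

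A member was called marked when an H3K4me3 peak reached within 5 kb of the gene by at least 1 base, the gene body included, and was said to have ETV5 when an ETV5 peak did. Each peak has a pileup, which is the number of fragments stacked over its summit, and a fold, which is that pileup over the local input background. The folds are the authors' own values and served only to rank and describe peaks within a list. The ETV5 list rests on 5715049 tags and the H3K4me3 list on 34907608 tags. With 1 library per antibody there was no replicate check, no test between groups and no p-value. Intervals are exact 95% Poisson intervals for pileups and exact 95% Clopper-Pearson intervals for shares, and cover counting error only. All 8 AT2 markers (Sftpa1, Sftpb, Sftpc, Sftpd, Abca3, Lamp3, Slc34a2 and Napsa) were marked and had ETV5. H3K4me3 marked 5 of 5 ciliated cell markers, 3 of 5 leukocyte, 1 of 5 endothelial, 0 of 5 airway secretory, 0 of 5 mesenchymal and 0 of 5 hepatocyte markers. ETV5 was present at 5 of 5 ciliated, 4 of 5 endothelial, 3 of 5 leukocyte, 3 of 5 mesenchymal, 1 of 5 airway secretory and 1 of 5 hepatocyte markers. For the leukocyte genes Cd68 and Cd79a, the marked sites lay closest to the ends of Eif4a1 and Arhgef1. The part of other cells in the peaks at members was not tested.

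Few P450 genes carried either signal. H3K4me3 marked 21 of 92 members (22.8%, interval 14.7 to 32.8), while the same rule called 59.8% of all protein-coding genes. ETV5 was present at 24 of 92 members (26.1%, interval 17.5 to 36.3), against 63.2% of all protein-coding genes. Keeping only peaks with a −log10 q of at least 10 left 11 of 92 members with ETV5, beside 51.5% of all protein-coding genes. Keeping only folds of at least 10 left 5 of 92, beside 43% of all protein-coding genes. Both signals were present at 14 members, H3K4me3 without ETV5 at 7, ETV5 without H3K4me3 at 10, and neither at 61. Of all 21887 protein-coding genes, 12453 had both, 632 had H3K4me3 without ETV5, 1387 had ETV5 without H3K4me3, and the rest had neither. The marked members were Cyp51, Cyp4v3, Cyp1a1, Cyp27b1, Cyp2r1, Cyp39a1, Cyp4f13, Cyp20a1, Cyp4f17, Cyp2d22, Cyp2j6, Cyp4f18, Cyp2u1, Cyp46a1, Cyp2b10, Cyp4f16, Cyp2j9, Cyp1b1, Cyp2s1, Cyp27a1 and Cyp4f39, in falling order of their highest H3K4me3 fold. No Cyp2c gene (0 of 15) and no Cyp3a gene (0 of 7) was marked. Cyp4f was the fullest of the subfamilies with several members, with 5 of 9 marked.

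**Figure D1:**
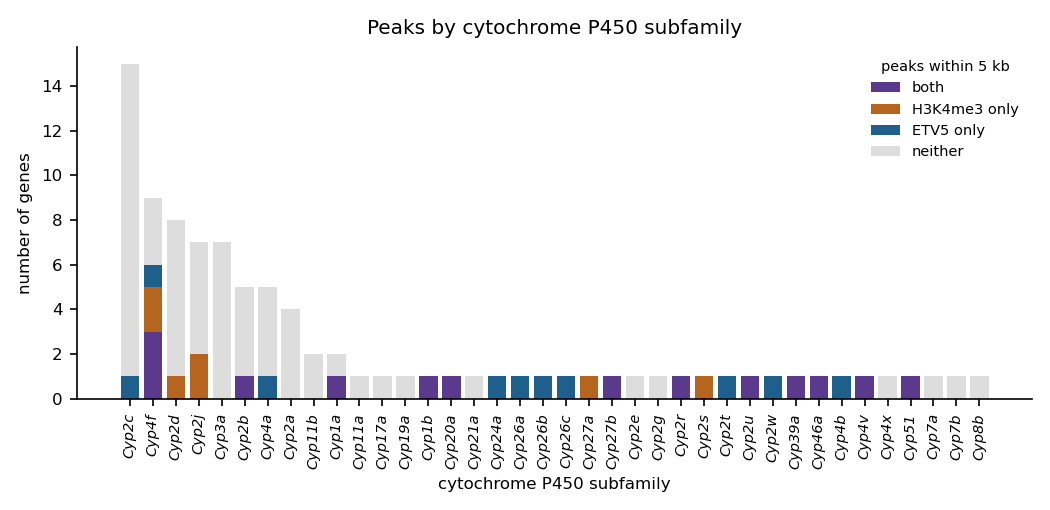
Number of P450 genes (y axis) in each subfamily (x axis), stacked by whether a gene had H3K4me3 and ETV5, H3K4me3 without ETV5, ETV5 without H3K4me3, or neither peak within 5 kb. The Cyp2c bar (15 genes) and the Cyp3a bar (7 genes) hold no marked gene, while 5 of 9 Cyp4f genes are marked.

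Promoters of 7 members are shown to put the marked and unmarked states beside their sequences. Each run is the 250 bases before the annotated start, 5′ to 3′ on the gene's strand, from RefSeq on GRCm38.p6. Capitals mark the motifs searched for on both strands: the ETS core CCGGAA (its complement TTCCGG), the longer ETS site CCGGAAGT, the core GCGTG (complement CACGC) bound by the aryl hydrocarbon receptor (AHR), and the TATA box TATAAA. A match describes the letters and is not evidence of binding.
Cyp51: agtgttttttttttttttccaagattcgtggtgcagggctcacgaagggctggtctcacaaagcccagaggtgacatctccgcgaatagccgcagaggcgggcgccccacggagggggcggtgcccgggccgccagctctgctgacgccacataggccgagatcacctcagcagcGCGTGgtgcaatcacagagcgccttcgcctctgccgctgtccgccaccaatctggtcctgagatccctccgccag
Cyp2r1: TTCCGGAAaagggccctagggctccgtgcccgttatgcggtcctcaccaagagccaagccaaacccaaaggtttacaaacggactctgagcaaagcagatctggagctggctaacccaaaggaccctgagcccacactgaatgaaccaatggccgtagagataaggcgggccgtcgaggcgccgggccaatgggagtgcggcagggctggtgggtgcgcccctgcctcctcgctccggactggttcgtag
Cyp20a1: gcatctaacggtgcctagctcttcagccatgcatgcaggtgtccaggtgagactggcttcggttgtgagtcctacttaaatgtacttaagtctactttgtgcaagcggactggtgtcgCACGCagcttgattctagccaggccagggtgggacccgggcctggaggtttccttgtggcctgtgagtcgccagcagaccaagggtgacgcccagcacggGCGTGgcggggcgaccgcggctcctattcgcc
Cyp2j6: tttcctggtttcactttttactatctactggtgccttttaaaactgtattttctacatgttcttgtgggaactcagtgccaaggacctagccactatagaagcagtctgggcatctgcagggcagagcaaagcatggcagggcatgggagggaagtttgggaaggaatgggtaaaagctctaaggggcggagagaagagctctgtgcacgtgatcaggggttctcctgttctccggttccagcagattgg
Cyp1a1: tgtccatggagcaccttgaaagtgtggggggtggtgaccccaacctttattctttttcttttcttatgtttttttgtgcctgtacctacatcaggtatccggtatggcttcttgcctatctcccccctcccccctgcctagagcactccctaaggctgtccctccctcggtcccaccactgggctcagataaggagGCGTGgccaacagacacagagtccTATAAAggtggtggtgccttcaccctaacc
Cyp2c29: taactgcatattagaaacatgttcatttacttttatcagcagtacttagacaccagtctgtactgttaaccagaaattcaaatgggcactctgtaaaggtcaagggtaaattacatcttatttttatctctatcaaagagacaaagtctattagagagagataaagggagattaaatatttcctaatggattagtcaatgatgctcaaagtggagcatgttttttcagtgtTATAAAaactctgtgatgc
Cyp26b1: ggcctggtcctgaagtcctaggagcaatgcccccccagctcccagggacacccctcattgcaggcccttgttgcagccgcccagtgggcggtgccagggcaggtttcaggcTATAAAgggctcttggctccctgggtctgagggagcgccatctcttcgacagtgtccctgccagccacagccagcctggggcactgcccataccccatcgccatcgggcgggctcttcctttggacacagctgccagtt

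The first 3 genes, Cyp51 (chr5:4104698-4104947, minus strand), Cyp2r1 (chr7:114562973-114563222, minus strand) and Cyp20a1 (chr1:60343050-60343299, plus strand), had both H3K4me3 and ETV5 over the start. Cyp51 had 20 CpG pairs in the printed bases and an AHR core 75 bases before the start. Cyp2r1 had 16 CpG pairs and the overlapping cores written TTCCGGAA, whose first base lies 250 bases before the start. Cyp20a1 had 15 CpG pairs and AHR cores 132 and 32 bases before the start. Cyp2j6 (chr4:96553652-96553901, minus strand) had H3K4me3 over its start and no ETV5, and its run holds 3 CpG pairs and none of the motifs. Cyp1a1 (chr9:57697363-57697612, plus strand) had no peak at its own start, and its run holds 3 CpG pairs, an AHR core 54 bases and a TATA box 30 bases before the start. Cyp2c29 (chr19:39286835-39287084, plus strand) stands for the unmarked arrays, with 0 CpG pairs and a TATA box 19 bases before the start. Cyp26b1 (chr6:84593811-84594060, minus strand) had ETV5 peaks in its gene body and no H3K4me3, and its run holds 7 CpG pairs and a TATA box 139 bases before the start.

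Cyp51 had the strongest H3K4me3 peak of the family. Its enzyme, lanosterol demethylase, belongs to the cholesterol synthesis that every cell can run. The peak covered the start and reached a pileup of 358 (interval 322 to 397) and a fold of 56.3, higher than 96.4% of all H3K4me3 peaks. An ETV5 peak with its summit 31 bp after the start had a pileup of 39 (interval 27.7 to 53.3) and a fold of 17.8, higher than 85.8% of ETV5 peaks. A weaker ETV5 peak, with a fold of 4.77, lay 621 bp after the start.

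Of the 7 genes of cholesterol, bile acid and oxysterol metabolism, 4 were marked (interval 18.4 to 90.1%) and 3 had ETV5 (9.9 to 81.6%). These intervals held the shares over all protein-coding genes, 59.8% and 63.2%. Cyp46a1, the cholesterol hydroxylase best known in neurons, had both signals. Its ETV5 peak had a pileup of 27 (interval 17.8 to 39.3) and a fold of 12.5 across the start, higher than 76.4% of ETV5 peaks. The higher of its H3K4me3 peaks had a pileup of 68 (interval 52.8 to 86.2) and a fold of 10.8, higher than 26.9% of H3K4me3 peaks. Cyp39a1, an oxysterol hydroxylase, had an H3K4me3 peak with a fold of 29.5 and a pileup of 201 (interval 174 to 231). The ETV5 peak beside it, with a fold of 16.4 and a pileup of 29 (interval 19.4 to 41.6), lay closest to the end of Slc25a27, 92 bp away. Cyp27a1, the mitochondrial sterol hydroxylase, had a small H3K4me3 peak over its start, with a pileup of 35 (interval 24.4 to 48.7) and a fold of 5.26, and no ETV5. Cyp7a1, the rate-limiting enzyme of bile acid synthesis, Cyp7b1 and Cyp8b1 had neither signal, and the nearest H3K4me3 peak to Cyp7b1 was 918404 bp away.

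The 3 vitamin D genes all had ETV5 (interval 29.2 to 100%), and 2 of them were marked (9.43 to 99.2%). With so few genes, both intervals held the shares over all protein-coding genes, 63.2% and 59.8%. Cyp2r1, which makes the circulating form of vitamin D, had overlapping peaks over its start. Its H3K4me3 pileup was 216 (interval 188 to 247) with a fold of 31.7, and its ETV5 pileup was 39 (interval 27.7 to 53.3) with a fold of 13 and a summit 58 bp after the start. Cyp24a1, which inactivates vitamin D, was unmarked, and an ETV5 peak 1653 bp wide across an end of the gene reached a pileup of 14 (interval 7.65 to 23.5) and a fold of 7.36. Cyp27b1, which makes the active hormone, was called only through a neighbour. Its H3K4me3 peak (fold 38.4) began 4217 bp from the gene, with the summit 80 bp from an end of Marchf9. Its ETV5 peak, with a fold of 5.46, was also closest to Marchf9.

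Of the 3 AHR targets, Cyp1a1 and Cyp1b1 were called for both antibodies and Cyp1a2 had neither signal. That is 66.7%, beside 59.8% (H3K4me3) and 63.2% (ETV5) of all protein-coding genes. Cyp1a1, the inducible enzyme for polycyclic aromatic hydrocarbons, had the highest ETV5 fold of all members, 21.6, with a pileup of 43 (interval 31.1 to 57.9), and an H3K4me3 fold of 41.3. The peaks began 4515 and 4539 bp beyond the 3′ end of Cyp1a1, and both summits lay within 147 bp of an end of Edc3. Cyp1b1, a P450 of extrahepatic tissues that also acts on oestrogens, had 4 ETV5 peaks, with folds of 6.62, 6.38, 5.53 and 5.12. Its H3K4me3 peak was weak, with a pileup of 38 (interval 26.9 to 52.2) and a fold of 6.12, and its summit lay 866 bp upstream of the start.

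Among the 52 CYP2 and CYP3 genes other than Cyp2r1, 6 were marked (11.5%) and 5 had ETV5 (9.62%), beside 59.8% and 63.2% of all protein-coding genes. Cyp2u1, a fatty acid hydroxylase, had overlapping peaks, with an H3K4me3 fold of 10.9 and an ETV5 fold of 5.15. Cyp2b10, known for its induction by phenobarbital, had an H3K4me3 peak over its start with a pileup of 76 (interval 59.9 to 95.1) and a fold of 10.6, and ETV5 peaks 4943 and 6994 bp after the start with folds of 6.87 and 4.9. The other 4 marked genes had no ETV5 peak within 5 kb. They were Cyp2d22 with an H3K4me3 fold of 14.7 and a pileup of 94 (interval 76 to 115), and Cyp2j6, an arachidonic acid epoxygenase, with a fold of 14.5 and a pileup of 115 (interval 94.9 to 138). Cyp2j9 had a fold of 6.78, and Cyp2s1, known from epithelia exposed to the outside, had a fold of 6.04 with a pileup of 38 (interval 26.9 to 52.2).

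Unmarked CYP2 genes with ETV5 were Cyp2w1, Cyp2c23 and Cyp2t4. Cyp2w1 had 3 ETV5 peaks, with a highest fold of 7.79 at 956 bp past its 3′ end and closest to 3110082I17Rik. Cyp2c23, an arachidonic acid epoxygenase of the kidney, had 1 peak with a fold of 6.23 inside the gene. The peak of Cyp2t4 had a fold of 5.11 and was closest to Egln2. The remaining unmarked members had neither signal, among them Cyp2a4, Cyp2a5, Cyp2a12, Cyp2a22, Cyp2b13 and Cyp2b19.

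In the CYP4 family, which acts on the ends of fatty acid and eicosanoid chains, 6 of 17 genes were marked and 7 had ETV5. Their intervals, 14.2 to 61.7% and 18.4 to 67.1%, held the shares over all protein-coding genes, 59.8% and 63.2%. Cyp4v3, a fatty acid hydroxylase, had an H3K4me3 peak over its start with a pileup of 272 (interval 241 to 306) and a fold of 42.8, second only to Cyp51 among the members. Its ETV5 peak was weak, with a pileup of 12 (interval 6.2 to 21) and a fold of 4.22. Cyp4f13 had an H3K4me3 fold of 26.7 and an ETV5 fold of 6.89 at its start. Cyp4f17 had H3K4me3 folds of 20.4 and 15.5 and ETV5 folds of 7.91 and 4.13. Cyp4f16 had an H3K4me3 fold of 7.21 over its start and no ETV5. Cyp4b1, a lung P450 known for activating inhaled toxicants, was unmarked and had 1 weak ETV5 peak 2340 bp after the start, with a pileup of 11 (interval 5.49 to 19.7) and a fold of 4.89. The nearest H3K4me3 peak to Cyp4b1 was 9436 bp away. Unmarked Cyp4a31 and Cyp4f15 had ETV5 folds of 8.01 and 5.39, and unmarked Cyp4a10, Cyp4a14, Cyp4a29, Cyp4a32, Cyp4f14 and Cyp4f37 had neither signal.

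All 3 retinoic acid hydroxylases had ETV5 (interval 29.2 to 100%) and none was marked (0 to 70.8%). Both intervals held the shares over all protein-coding genes, 63.2% and 59.8%. Cyp26b1 had 9 separate ETV5 peaks, between 3883 and 12795 bp after its start, with folds from 4.26 to 9.32. Of 8802 unmarked protein-coding genes, 7 (0.0795%) had 9 or more ETV5 peaks, and the most at any of them was 12. The cutoff of 9 was the Cyp26b1 count itself. With 2 or more ETV5 peaks there were 4 of 71 unmarked members (5.63%), beside 7.08% of unmarked protein-coding genes. The strongest of the Cyp26b1 peaks was 1017 bp wide with a pileup of 18 (interval 10.7 to 28.4), and the nearest H3K4me3 peak was 474698 bp away. Cyp26a1 and Cyp26c1 are neighbours and shared the same 2 ETV5 peaks. Of these, a peak 89 bp from the 3′ end of Cyp26c1 had a pileup of 8 (interval 3.45 to 15.8) and a fold of 5.55, and a peak over the start of Cyp26a1 had a pileup of 7 (interval 2.81 to 14.4) and a fold of 4.93.

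None of the 6 steroid hormone genes (Cyp11a1, Cyp11b1, Cyp11b2, Cyp17a1, Cyp19a1 and Cyp21a1) had either signal. The interval was 0 to 45.9% for each, beside 59.8% (H3K4me3) and 63.2% (ETV5) of all protein-coding genes. Cyp20a1, whose substrate is not established, had both peaks over its start. Its H3K4me3 pileup was 156 (interval 132 to 182) with a fold of 24.3, and its ETV5 pileup was 27 (interval 17.8 to 39.3) with a fold of 8.01.

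**Figure D2:**
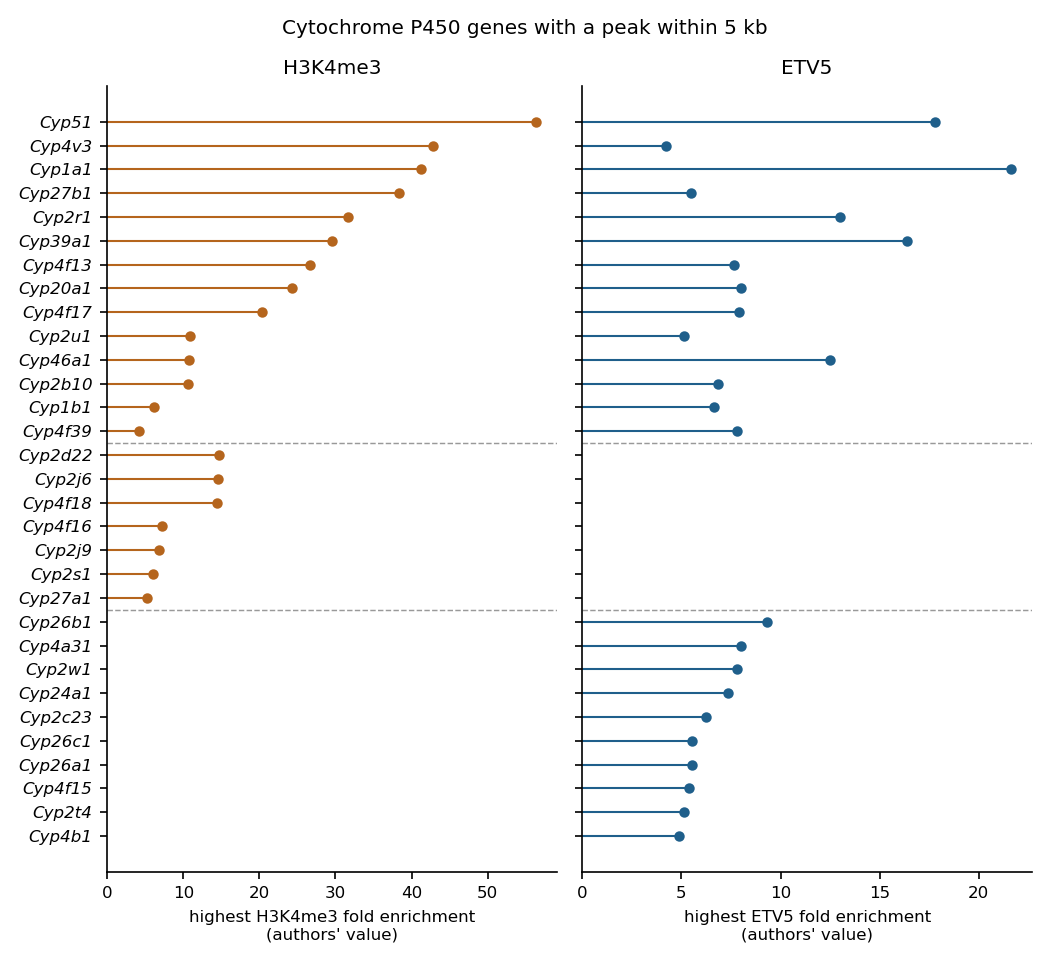
Highest fold over input of the H3K4me3 and ETV5 peaks within 5 kb (x axis, linear scale) for each of the 31 P450 genes with either peak (y axis). H3K4me3 folds run from 4.23 at Cyp4f39 to 56.3 at Cyp51, and ETV5 folds from 4.22 at Cyp4v3 to 21.6 at Cyp1a1, where the peak was closest to Edc3.

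Marked and unmarked members differed in how often they had ETV5. ETV5 was present at 14 of 21 marked members (66.7%, interval 43 to 85.4), against 95.2% of all marked protein-coding genes. This share was 35% with the q limit and 33.3% with the fold limit, beside 85.1% and 76.2% of all marked genes. At unmarked members it was present at 10 of 71 (14.1%, interval 6.97 to 24.4), and at 15.8% of all unmarked protein-coding genes, so that share was near the background. It was 5.56% with the q limit and 0% with the fold limit. The median highest ETV5 fold was 7.85 at the 14 marked members with ETV5 (4.22 to 21.6) and 5.89 at the 10 unmarked members (4.89 to 9.32), and the ranges overlapped. The same medians over all protein-coding genes were 15.8 and 5.92. Of the 41 distinct ETV5 peaks at members, 14 (34.1%) overlapped an H3K4me3 peak, compared with 48.9% of all ETV5 peaks. These 41 peaks had a median pileup of 12 (7 to 43), so many of them rest on few fragments.

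Marked members without ETV5 had weaker H3K4me3 than most of those with it, although the ranges overlapped. Their median highest H3K4me3 fold was 7.21 (n = 7, 5.26 to 14.7), and it was 25.5 at the marked members with ETV5 (n = 14, 4.23 to 56.3). The ratio of these medians, 3.53, was 1.91 with a window of 20 kb and 1.89 with each peak given to its nearest gene. Over all marked genes the median was 35.7, and over the 21 marked members it was 14.5. ETV5 was present at 2 of 6 members with an H3K4me3 fold under 8, where the share over all genes was 70.9%. It was present at 3 of 6 members between 8 and 16, where the share over all genes was 84.2%. All 5 members between 16 and 32 and all 4 from 32 upwards had ETV5, with shares over all genes of 95.9% and 99.4%. Among those 4 were Cyp1a1 (41.3) and Cyp27b1 (38.4), called for both antibodies only through peaks closest to Edc3 and Marchf9. Among the 5 was Cyp39a1 (29.5), whose ETV5 peak was closest to Slc25a27. At the shares of all genes in these ranges, 18.1 of the 21 marked members (86.1%) would have ETV5. The 7 marked genes without ETV5 thus all had H3K4me3 folds under 16, a range in which most other genes had ETV5.

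**Figure D3:**
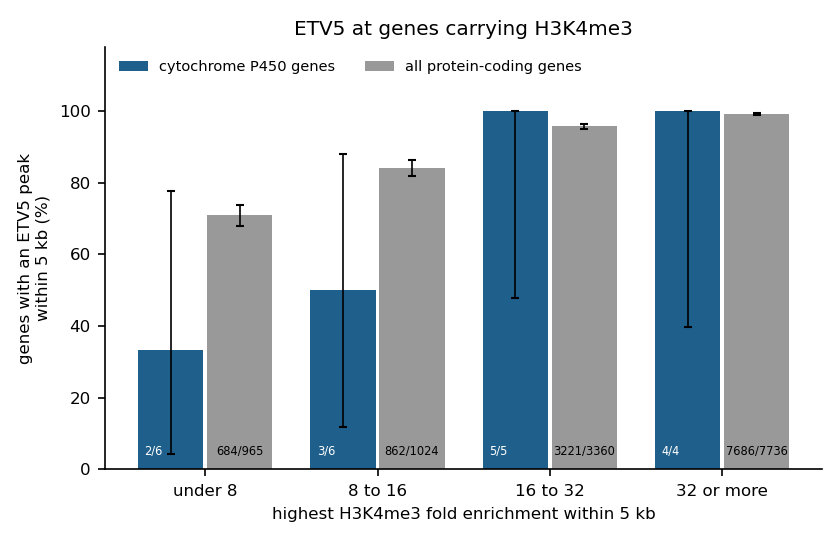
Percent of genes with an ETV5 peak within 5 kb (y axis) in 4 ranges of the highest H3K4me3 fold (x axis), for marked P450 genes and for all marked protein-coding genes, with exact 95% Clopper-Pearson intervals. The P450 genes lie at 33.3% under a fold of 8 and at 50% between 8 and 16, against 70.9% and 84.2% of all genes, with wide intervals for the 6 P450 genes in each range. The highest range includes Cyp1a1 and Cyp27b1, which were called only through peaks closest to a neighbouring gene.

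Some calls lay near the edge of the 5 kb window. Just inside it were Cyp1a1, with H3K4me3 at 4539 bp and ETV5 at 4515 bp, and Cyp27b1, with H3K4me3 at 4217 bp and ETV5 at 4007 bp. Just outside it for H3K4me3 were Cyp2t4 at 6931 bp, Cyp4f14 at 7107 bp and Cyp2w1 at 7220 bp, and for ETV5 Cyp4f14 at 7389 bp and Cyp4f16 at 7480 bp. With a window of 20 kb, 30 members were marked and 31 had ETV5, beside 66% and 68.6% of all protein-coding genes. In that window ETV5 was present at 83.3% of marked members and 96.2% of all marked genes. At the median unmarked member the nearest H3K4me3 peak was 110 kb away (6.93 to 918 kb).

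Most members, 65 of 92, lay in tandem arrays, so a high share is a trait of the whole family and not of unmarked genes alone. Another member was within 100 kb of 55 of 71 unmarked genes (77.5%, interval 66 to 86.5) and of 10 of 21 marked genes (47.6%, interval 25.7 to 70.2), and these intervals overlapped. Put the other way, 10 of 65 clustered members were marked (15.4%, interval 7.63 to 26.5) and 11 of 27 single members (40.7%, interval 22.4 to 61.2). The share over all protein-coding genes was 59.8%. ETV5 was present at 10 of 65 clustered (15.4%, interval 7.63 to 26.5) and 14 of 27 single members (51.9%, interval 31.9 to 71.3). The share over all protein-coding genes was 63.2%. Both intervals of the single members held the share over all genes. Neighbours in an array share their surroundings, so these genes are not independent. The intervals treat them as independent and are no test of a difference. Of 18 arrays with 2 or more members, 10 arrays with 35 members had neither signal at any member. The Cyp2c29 to Cyp2c69 array (chr19:39287044-39886769) spans 600 kb and 7 members without a peak of either kind inside it. The same held for the Cyp2b23 to Cyp2a12 array of 372 kb with 6 members and for the Cyp3a44 to Cyp3a59 array of 341 kb with 4 members. In the Cyp2j array of 370 kb, 2 of 5 members were marked (Cyp2j6 and Cyp2j9), and in the first Cyp2d array of 250 kb, 1 of 6 was (Cyp2d22).

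Promoter composition followed the same division. The promoter window, 250 bases before to 50 after the start, was matched for 72 members by gene identifier, 17 marked and 55 unmarked. The median GC content was 55.3% in marked members (50.3 to 70.3) and 47.3% in unmarked members (30.3 to 62.3), beside 60.7% and 47.7% over all marked and unmarked genes. The CpG ratio, observed over that computed from base content, had a median of 0.44 in marked members (0.09 to 0.97) and 0.13 in unmarked members (0.00 to 0.89), beside 0.75 and 0.21 over all marked and unmarked genes. With H3K4me3 counted within 5 kb of the start instead, the median ratio was 0.57 in 13 marked members and 0.14 in the other 59. The ranges overlapped widely by either rule. Among those described above, Cyp51 had a ratio of 0.89, Cyp2r1 0.71, Cyp20a1 0.67, Cyp26b1 0.31, Cyp2c29 0.22, Cyp2j6 0.21 and Cyp1a1 0.19. Unmarked Cyp26b1 and Cyp2c29 thus lay above marked Cyp2j6. Cyp1a1 also lay below them, but its H3K4me3 peak was closest to Edc3 and not at its own start. Cyp26a1 was unmarked with a ratio of 0.89, equal to that of Cyp51. Copies of another promoter could draw the same tags, and the sources used here do not say how repeated tags were placed. No run of 50 bases was shared with another gene's promoter in 16 of 17 marked and 36 of 55 unmarked members. At least 50% of such runs were shared in 4 unmarked members, Cyp2b9, Cyp2b13, Cyp2c40 and Cyp2c69.

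**Figure D4:**
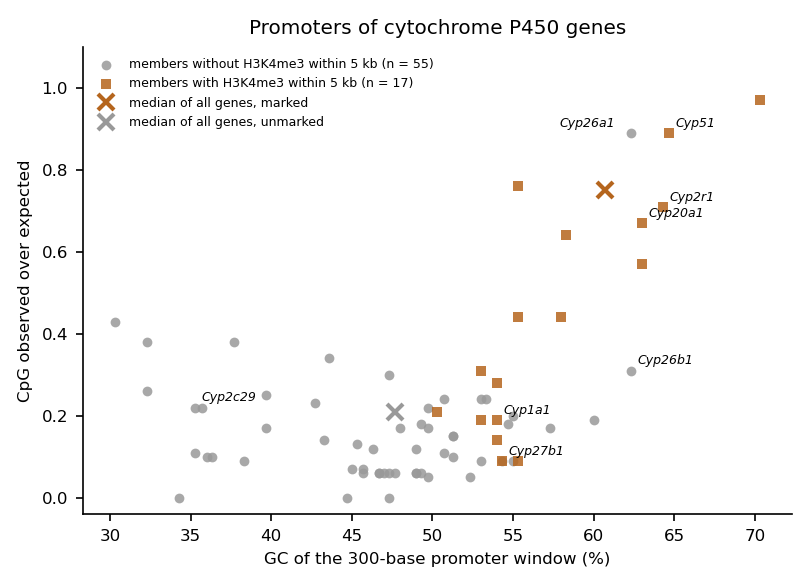
CpG observed over expected (y axis) against GC content in percent (x axis) of the promoter windows of 72 P450 genes, by whether the gene was marked by H3K4me3. Crosses are the medians of all marked and all unmarked protein-coding genes (60.7% and 0.75, and 47.7% and 0.21), and most unmarked P450 genes lie at the lower left.

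The motifs shown in the printed promoters were counted in the whole 300-base windows on both strands. TATAAA was present in 30 of 55 unmarked members (54.5%) and in 1 of 17 marked members (5.88%). That 1 was Cyp1a1, which had no H3K4me3 at its own start. Over all genes TATAAA was present in 14.8% of promoters, in 24.2% of those of unmarked and 8.61% of those of marked genes. With H3K4me3 counted within 5 kb of the start, TATAAA was in 0 of 13 marked and 31 of 59 other members (52.5%). GCGTG showed the opposite division, with 11 of 17 marked (64.7%) and 5 of 55 unmarked members (9.09%). Over all genes GCGTG was present in 41.4% of promoters, in 55.8% of those of marked and 19.6% of those of unmarked genes. The ETS core CCGGAA was present in 3 of 17 marked members (Cyp2r1, Cyp4f13 and Cyp4v3) and 2 of 55 unmarked members (Cyp2t4 and Cyp2d9), 17.6% and 3.64%. Over all genes it was present in 20.9% of promoters, in 30.6% of those of marked and 6.11% of those of unmarked genes. On the gene's own strand alone it was in 1 of 17 marked and 0 of 55 unmarked members. By ETV5, the core was in 4 of 18 members with a peak (22.2%) and 1 of 54 without (1.85%), and in 29.5% and 6.08% of all genes with and without ETV5. CCGGAAGT was in none of the 72 and in 5.69% of all promoters. CCGGAAGT contains CCGGAA, so the ETS counts are nested.

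Most marked members had H3K4me3 at the gene start, and some CYP4F genes had it at the 3′ end. Of 17 marked members with an annotated start, 13 had H3K4me3 within 1 kb of it, and the other 4 were Cyp1a1, Cyp27b1, Cyp4f18 and Cyp4f39. H3K4me3 summits inside a gene, within 2 kb of its 3′ end and away from other gene ends were found at Cyp4f13, Cyp4f18 and Cyp4f39. This class was defined after the values were seen. It held 3 of 8 CYP4F genes with a known strand (37.5%) and 3 of 72 members (4.17%), and 75 of 17492 protein-coding genes (0.429%). At Cyp4f18, a leukotriene hydroxylase known from neutrophils, the single H3K4me3 peak had a pileup of 91 (interval 73.3 to 112), a fold of 14.4 and its summit 326 bp before the 3′ end. At Cyp4f13 a second H3K4me3 peak, with a pileup of 71 (interval 55.5 to 89.6) and a fold of 11.3, lay 302 bp before the 3′ end and overlapped an ETV5 peak with a fold of 7.64. Cyp4f39 had a weak H3K4me3 peak with a pileup of 26 (interval 17 to 38.1) and a fold of 4.23, 641 bp before its 3′ end, and an ETV5 peak with a fold of 7.79 in the gene 10052 bp before that end. At Cyp4f17, whose strand was not used here, the H3K4me3 peaks lay 10 bp from one end of the gene and 1501 bp from the opposite end, and ETV5 overlapped the latter. Unmarked Cyp4f15 had its ETV5 peak 503 bp before the 3′ end.

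**Figure D5:**
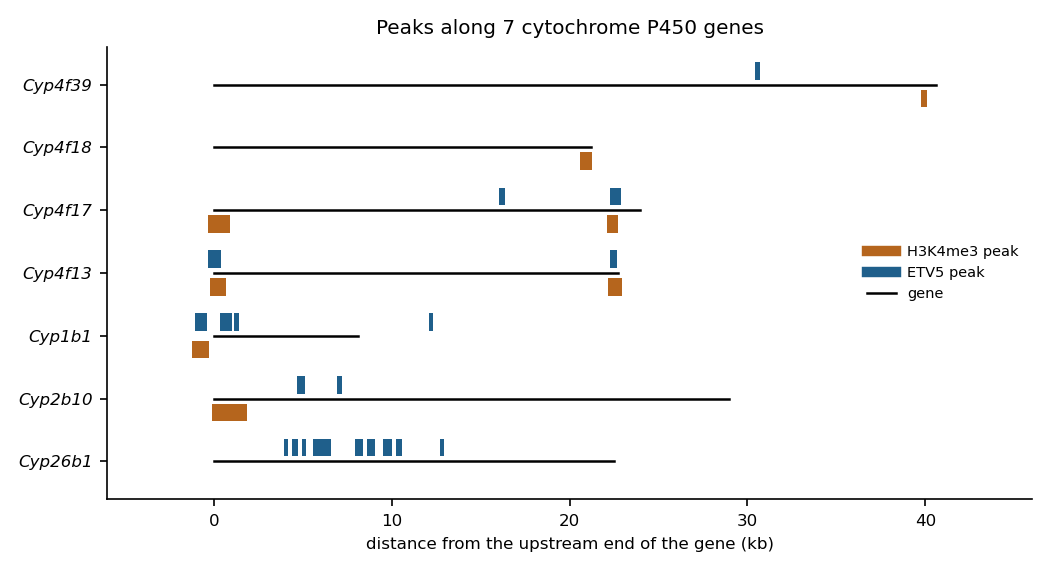
Positions of H3K4me3 and ETV5 peaks along 7 P450 genes, as distance from the upstream end of the gene in kb (x axis). Cyp4f17 is drawn from its lower-coordinate end, without a strand. Cyp4f18 and Cyp4f39 carry H3K4me3 near the 3′ end, Cyp4f13 at both ends, and Cyp26b1 carries 9 ETV5 peaks and no H3K4me3.

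The genes that serve P450 enzymes were marked more often than the P450 genes themselves. Of 31 partner genes, 27 were marked (87.1%) and 26 had ETV5 (83.9%), beside 59.8% and 63.2% of all protein-coding genes, and all 26 with ETV5 were marked. An H3K4me3 peak closest to an end of the gene itself was present at 24 of the 31 (77.4%) and at 19 of the 92 members (20.7%). Ahrr, Nr1i3 and Uros were marked only by peaks closest to another gene. All 7 redox partners had both signals. The reductase Por had an ETV5 fold of 54.7, the ferredoxins Fdx2 and Fdx1 had 46.2 and 20.9, and the cytochrome b5 reductase Cyb5r3 had 37.7. Of 14 regulators, 11 had both signals. The highest ETV5 folds were 75.2 at Nfe2l2, the oxidant-responsive factor, 42.9 at the oxysterol receptor Nr1h3 (closest to Madd), 39.1 at the retinoid X receptor Rxrb and 28.2 at Nr1h2. The xenobiotic receptor Nr1i2, the bile acid receptor Nr1h4 and the liver factor Hnf4a had neither. Of 8 haem synthesis genes, 7 had both, with ETV5 folds of 113 at Uros (closest to Bccip), 23.7 at Fech, 22.9 at Alad and 9.39 at Alas1, and the erythroid gene Alas2 had neither. Of the P450 proteins with other symbols, which are not among the 31, thromboxane synthase Tbxas1 had both peaks, closest to Hipk2, and prostacyclin synthase Ptgis had neither. Of the epoxide hydrolases, Ephx1 had both (ETV5 fold 12.5), and Ephx2 had H3K4me3 with a fold of 5.02 and no ETV5.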

How the data were processed

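ETV5 and H3K4me3 chromatin from AT2 cells was sequenced in 1 library each. Per the file headers, peaks were called per library with MACS2 2.1.0.20150420 at a q-value threshold of 0.05, keeping at most 1 tag per position, for ETV5 with 75 bp tags against 27495486 input tags and for H3K4me3 with 50 bp tags against 44758677. The ETV5 input bears a different name from the labelled input sample. The sources used here name no aligner. Each peak's pileup signal and fold ratio over input, and its −log10 values of p and q (p-value, q-value), are as the authors deposited them, and all pileups were whole numbers. The lists differ in depth, and its effect on the calls was not tested.

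The submitters' processing notes name mm9, yet 66.1% of 14702 H3K4me3 summits lay within 1 kb of an annotated GRCm38 start, so positions are GRCm38. Genes and promoters came from RefSeq GRCm38.p6 tables. The 31156 ETV5 and 15129 H3K4me3 peaks on assembled chromosomes were joined to genes with pandas 2.3.3 and numpy 2.4.6 in Python 3.11.15, intervals came from scipy 1.17.1, and figures from matplotlib 3.10.9. The steps were tested on simulated data. Samples were grouped by antibody.

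Members, lists and alternatives were chosen with earlier results of these data known. Named were every marked member, every member with ETV5, up to 6 members with neither signal per role group by symbol order, and, of partner genes, up to 4 per group by ETV5 fold and those without H3K4me3. Of the partner list, 1 gene is not reported here and enters no count of that list. Arrays, promoters and positions at gene ends added names after their values were seen. Alternatives covered windows, thresholds, gene assignment, array gaps and strand. Counts of partner and P450 genes without peaks closest to a neighbour were added after the data were seen.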

Additional observations from a re-analysis of the deposited data

How the results depend on the processing

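Of 48 recomputed values, 37 stayed within limits, 11 moved and 0 changed direction. The limits were a factor of 1.5 for counts and ratios and the main value's 95% interval for shares, and, for differences of shares, 50% of the width of the marked share's interval, which are wide limits. Counting within 5 kb of the annotated start left 72 members and 17492 protein-coding genes. Of these members, 13 were marked and 12 had ETV5, beside 56.8% and 59.1% of those genes. ETV5 was then present at 6.78% of unmarked members (12.4% of all unmarked genes). With peaks of −log10 q of at least 10, 11 members had ETV5, beside 51.5% of all genes. The shares were 35% of marked and 5.56% of unmarked members, beside 85.1% and 4.53% of all marked and unmarked genes. With folds of at least 10, 5 members had ETV5, beside 43% of all genes. The shares were 33.3% of marked and 0% of unmarked members, beside 76.2% and 3.64% of all marked and unmarked genes. The ratio of median H3K4me3 folds at members with and without ETV5, 3.53, was 1.91 with a 20 kb window and 1.89 with each peak given to its nearest gene. Leaving out members marked only at a neighbour gave 19 marked members, 63.2% with ETV5. The ETV5 share of marked members was below that of all marked genes with both limits on peaks and with windows of 1 and 20 kb. On the gene's own strand alone, the difference in ETS core between marked and unmarked members fell from 14 to 5.88 percentage points. No paired analysis was possible because each antibody has 1 library and no result comes from a test.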

Other observations

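Other enzyme families of drug metabolism were counted by the same rule, and were chosen after the values of the P450 genes had been seen. Over all protein-coding genes, 59.8% were marked and 63.2% had ETV5. H3K4me3 marked 17 of 25 glutathione S-transferases (68%), and 17 had ETV5, of which 14 were marked. Gstz1 and Gstp1 had ETV5 folds of 24.6 and 23.5. Among aldehyde dehydrogenases, which oxidise aldehydes including retinal, 14 of 20 were marked (70%) and 14 had ETV5, with ETV5 folds of 46.8 at Aldh3a2 and 41.1 at Aldh4a1. Aldh3a1 and Aldh1b1 had neither signal. The shares of both families lay near those over all genes.

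Further families resembled the P450 genes in having few marked members. Of 21 sulfotransferases, 3 were marked (14.3%) and 3 had ETV5, with the highest ETV5 fold, 38.3, at Sult2b1. The H3K4me3 peaks of Sult1a1 and Sult6b1 were closest to Slx1b and Eif2ak2. Of 18 UDP-glucuronosyltransferases, 5 were marked (27.8%), and those 5 were Ugt1a genes that share a peak closest to Dnajb3, with an H3K4me3 fold of 7.5 and an ETV5 fold of 3.9. Of 19 carboxylesterases, 2 were marked (10.5%) and 2 had ETV5. These were Ces1d and Ces1e, with the same H3K4me3 fold of 32.6 and ETV5 fold of 5.52, in both cases closest to Ces1d. The 6 protein-coding Cyp genes whose symbols fall outside the rule (Cyp4a12a, Cyp4a12b, Cyp4a30b, Cyp3a41a, Cyp3a41b and Cyp2ab1) had neither signal.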
